A study of Arabidopsis thaliana with 56 samples.

Results

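The genes described are the 4 CROWDED NUCLEI genes of Arabidopsis thaliana, CRWN1 (AT1G67230), CRWN2 (AT1G13220), CRWN3 (AT1G68790) and CRWN4 (AT5G65770), together with KAKU4 (AT4G31430). They were chosen by identifier and not by a rule on their measured values, but with earlier results of these data known. They are 5 of the 63867 features in the count files. All 5 passed the filter for low counts. The nuclear lamina is the protein layer that lines the inside of the nuclear envelope. Plants have no lamin genes, and in Arabidopsis the CRWN proteins, long coiled-coil proteins, take the corresponding place. They are known to set the size and shape of the nucleus and to affect how chromatin is arranged in it. CRWN1, CRWN2 and CRWN3 belong to a single branch of the family and CRWN4 to another, and KAKU4 is a plant-specific protein of the nuclear periphery that binds CRWN1 and CRWN4.

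Messenger RNA was sequenced from endosperm nuclei, the nutritive tissue of the seed, sorted at a DNA content of 6C. Each library was made from the seeds of 1 to 5 siliques. The 5 groups were wild type (WT) at 6 days after pollination (DAP) with 4 libraries, WT at 7 DAP with 4, and crwn1/2 at 6, 7 and 8 DAP with 3, 5 and 4. The series title and design text name crwn1/2 as loss of CRWN1 and CRWN2, the labels give no allele or kind of mutation, and WT at 8 DAP was not analysed here. The labels do not say that replicates came from separate plants, so p-values measure the spread between these libraries, which may be technical. Levels are given as CPM, counts per 1000000 of the scaled library total, and differences as log2 differences from an edgeR quasi-likelihood fit over all 24696 features that passed the filter. A difference passed where its p-value, adjusted by Benjamini-Hochberg over all those features, was under 0.05. Because the gene lengths were not used, levels were compared between groups and not between genes.

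Library totals ran from 6986418 to 14359413 counts, and 4.05% to 5.92% of reads fell outside features. All 11 endosperm markers had counts in every group and summed to 213 to 363 counts per 1000000 of the unscaled total in each library. Most of that sum was ZOU and SUC5, which at 7 DAP differed in opposite directions between genotypes, by -1.21 and 0.78 on the log2 scale. Of the 10 endosperm markers tested, 4 were higher in crwn1/2 at 6 DAP and none lower. These were FWA, MEA, AGL62 and PHE1, at 1.97, 1.82, 1.53 and 4.45 on the log2 scale. At 7 DAP 3 were higher (FWA, PHE1 and SUC5) and ZOU lower. Of all features, 6.38% were higher and 6.26% lower in crwn1/2 at 6 DAP, and 10.9% and 13.5% at 7 DAP. IKU2 and MINI3, regulators of endosperm growth, were near 0, with group means of 0.17 to 1.29 and 0.24 to 1.67 CPM. PHE1 was also near 0 in WT, with means of 0.955 and 0.257 CPM at 6 and 7 DAP. In crwn1/2 at 6 DAP its libraries ran from 4.88 to 38.1 CPM, so the size of its difference is uncertain. On the same unscaled scale, the 9 seed coat markers summed to 1486 to 1817 CPM in WT and 2257 to 2674 CPM in crwn1/2 at 6 DAP, to 985 to 1407 CPM and 1085 to 1593 CPM at 7 DAP, and to 703 to 1175 CPM in crwn1/2 at 8 DAP. None of the 9 lacked counts in any group, and the 7 embryo markers summed to 8.19 to 43.9 CPM. At 6 DAP the seed coat sums did not overlap between the genotypes, but the markers went both ways. BAN, a gene of proanthocyanidin synthesis in the inner seed coat, rose from 408 ± 46.6 CPM in WT (SD, n = 4) to 1126 ± 72.1 CPM in crwn1/2 (SD, n = 3). In edgeR 4 of the 9 were higher, BAN, TT2, TT12 and STK (1.46, 2.32, 2.30 and 1.65 on the log2 scale). The 2 lower were GL2 and MUM4 (-1.26 and -1.31), which act in the outer, mucilage-forming layer. TT16, TT10 and TTG2 did not pass (1.15, 0.38 and 0.39). At 7 DAP 3 of the 9 were higher (BAN, TT2 and STK), and GL2 and MUM4 lower. The shares of all features given above for the 2 days apply to these counts as well. The part of these differences in the results below was not tested. In bulk libraries, fewer nuclei of a type and less RNA per nucleus cannot be told apart.

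The genes named in the genotype were read first. CRWN2 was lower in crwn1/2 at 6 DAP and in both comparisons across days, whereas CRWN1 passed no test for a difference between genotypes. CRWN2 had 61.6, 53.5, 90.3 and 74.2 CPM in WT replicates 1 to 4 at 6 DAP and 43.2, 44.8, 34.8 and 42.4 CPM at 7 DAP. In crwn1/2 it had 26.8, 23.7 and 36.9 CPM at 6 DAP and 26.5, 33.0, 14.2, 29.0 and 32.2 CPM at 7 DAP. At 8 DAP the crwn1/2 libraries had 20.7, 11.4, 30.3 and 18.1 CPM. All WT libraries at 6 DAP lay above all crwn1/2 libraries of 6 and 7 DAP, and all WT libraries at 7 DAP lay above all crwn1/2 libraries of 7 and 8 DAP. How many of all features separated in this way was not counted, here or for the separations below.

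At 6 DAP CRWN2 was lower in crwn1/2, at 41.8% of the WT level, with a log2 difference of -1.26 (SE 0.28, 95% interval -1.83 to -0.68, edgeR adjusted p 0.00392). It was the only member that passed at 6 DAP, in a comparison where 12.6% of all features passed, 6.38% higher and 6.26% lower in crwn1/2. At 7 DAP its log2 difference of -0.61 (SE 0.24, interval -1.11 to -0.12) did not pass (edgeR adjusted p 0.0618), whereas it passed with DESeq2 (adjusted p 0.037), with DESeq2's size factors within edgeR (0.0467) and in a fit of only these groups (0.0404). With the share of reads outside features in the fit it was -0.37 (edgeR adjusted p 0.642), and without a filter on low counts -0.38 (0.196). That share did not overlap between the genotypes at 7 DAP, so the fit with it cannot fully separate it from genotype. Over all alternatives the adjusted p ran from 0.037 to 0.642. For crwn1/2 (8 DAP) versus WT (7 DAP), where day and genotype differ together, CRWN2 fell by 1.03 on the log2 scale (SE 0.26, edgeR adjusted p 0.01). There it was again the only member that passed, against 13.9% of all features, 6.9% higher and 7.04% lower. For crwn1/2 (7 DAP) versus WT (6 DAP) the difference was -1.37 (SE 0.24, edgeR adjusted p 0.000718), and CRWN2 was the only member among the 7.04% of features that passed (3.99% higher, 3.05% lower). The comparisons of 7 DAP and of crwn1/2 8 versus WT 7 DAP share the WT libraries of 7 DAP, and those of 6 DAP and of crwn1/2 7 versus WT 6 DAP share the WT libraries of 6 DAP. CRWN2 passed in the 6 DAP, crwn1/2 8 versus WT 7 DAP and crwn1/2 7 versus WT 6 DAP comparisons with every single library left out, with edgeR adjusted p of 0.004 to 0.0356, 0.00424 to 0.0342 and 0.00117 to 0.00636.

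**Figure D1:**
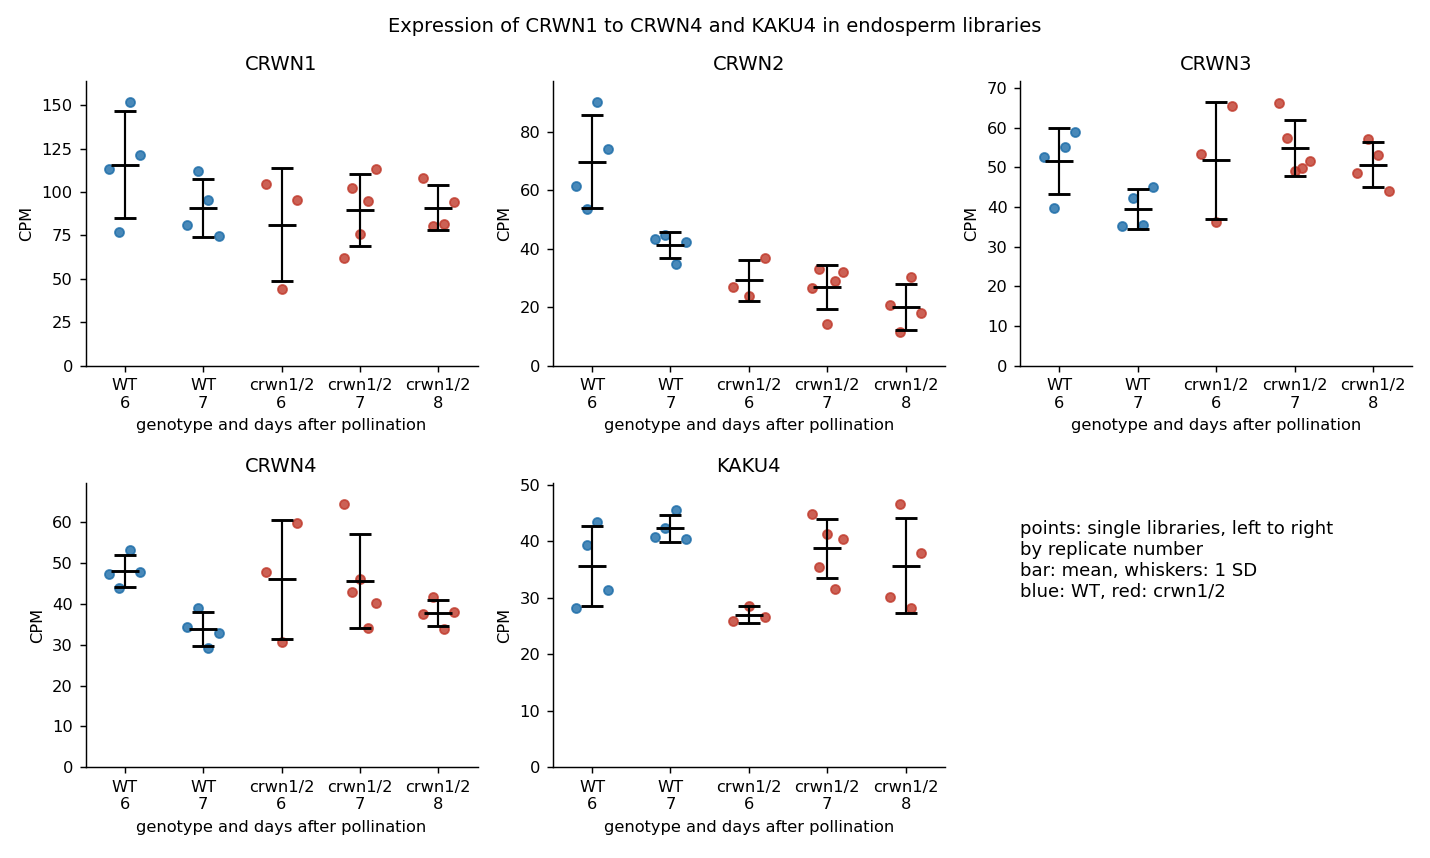
CPM (vertical axis, linear from 0) of CRWN1 to CRWN4 and KAKU4 in each library, by genotype and day after pollination. Points are libraries, bars group means and whiskers 1 SD. The crwn1/2 libraries of CRWN2 lie at 11.4 to 36.9 CPM and the WT libraries at 34.8 to 90.3 CPM, whereas the genotypes overlap for CRWN1 and KAKU4 at 6 and at 7 DAP.

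CRWN1, with CRWN4 the main component of the lamina in Arabidopsis, had 113, 76.8, 152 and 121 CPM in WT at 6 DAP and 104, 43.9 and 95.1 CPM in crwn1/2. At 7 DAP it had 81.0, 112, 95.5 and 74.8 CPM in WT and 62.2, 102, 75.7, 94.9 and 113 CPM in crwn1/2. The crwn1/2 libraries at 8 DAP had 108, 80.3, 81.7 and 94.4 CPM. The genotypes overlapped at 6 and at 7 DAP, and every library held at least 431 CRWN1 counts. The log2 difference was -0.51 at 6 DAP (interval -1.03 to 0.01, edgeR adjusted p 0.192) and -0.02 at 7 DAP (interval -0.47 to 0.43, edgeR adjusted p 0.962). Without crwn1/2 6 DAP replicate 2, the library with 43.9 CPM, the 6 DAP value shrank to -0.19 (edgeR adjusted p 0.668). Leaving out each library in turn gave values from -0.71 to -0.19 (edgeR adjusted p 0.103 to 0.668). With all libraries the difference was 0.00 for crwn1/2 (8 DAP) versus WT (7 DAP) (interval -0.47 to 0.48, edgeR adjusted p 0.996). In order of the mean, WT at 6 DAP was highest with 116 ± 30.8 CPM (SD, n = 4), the other groups lay between 81.2 and 91.1 CPM, and no neighbours differed beyond their spread. Counts pool reads over the whole gene, so these values do not say which stretch of the CRWN1 transcript was read, and they check neither the label nor the protein.

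CRWN3 was the member that passed upwards, at 7 DAP. This gene of the CRWN1 branch had 35.1, 42.3, 35.5 and 45.1 CPM in WT at 7 DAP and 66.1, 57.3, 49.2, 49.9 and 51.6 CPM in crwn1/2. All 5 crwn1/2 libraries lay above all 4 WT libraries, but the share of all features that did so was not counted. The log2 difference of CRWN3 was 0.47 (SE 0.16, interval 0.14 to 0.81, edgeR adjusted p 0.0351), or 139% of the WT level, and it was the only member among the 24.4% of features that passed at 7 DAP, of which 10.9% were higher and 13.5% lower. The call was lost, with edgeR adjusted p of 0.0551 to 0.118, when WT 7 DAP replicate 1, 2 or 3 or crwn1/2 7 DAP replicate 1 or 2 was left out. The share of reads outside features was 4.05% to 4.68% in crwn1/2 and 4.81% to 5.92% in WT at 7 DAP, without overlap. With that share in the fit the CRWN3 difference was 0.25 (edgeR adjusted p 0.639), but this fit cannot fully separate the share from genotype.

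At 6 DAP CRWN3 had 52.6, 39.8, 55.0 and 59.0 CPM in WT and 53.3, 36.3 and 65.5 CPM in crwn1/2, with a log2 difference of 0.00 (interval -0.37 to 0.38, edgeR adjusted p 0.992). The groups overlapped in full. In crwn1/2 at 8 DAP it had 48.5, 57.2, 53.0 and 44.0 CPM, which overlapped with WT at 7 DAP in 1 of 4 libraries, and the difference of 0.36 (interval 0.01 to 0.71) did not pass (edgeR adjusted p 0.153). In order of the mean, WT at 7 DAP was the lowest group with 39.5 ± 4.96 CPM (SD, n = 4), and the other 4 groups lay between 50.7 and 54.8 CPM, closer to each other than their SD.

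CRWN4, the member of the separate branch, had 47.2, 43.8, 53.2 and 47.8 CPM in WT and 47.6, 30.6 and 59.7 CPM in crwn1/2 at 6 DAP. At 7 DAP it had 34.4, 39.1, 29.1 and 32.8 CPM in WT and 64.4, 42.9, 46.1, 34.2 and 40.1 CPM in crwn1/2, with 4 of the 5 crwn1/2 libraries above every WT library. The log2 difference at 7 DAP was 0.43 (interval 0.06 to 0.80) and did not pass (edgeR adjusted p 0.0851). It passed with library totals alone (0.48, edgeR adjusted p 0.0479), with no minimum count (0.65, 0.0134) and without crwn1/2 7 DAP replicate 4 (0.51, edgeR adjusted p 0.0467). With the share of reads outside features in the fit it was 0.07 (edgeR adjusted p 0.932), but that fit cannot fully separate the share from genotype. Over all alternatives the adjusted p ran from 0.0134 to 0.932. In crwn1/2 at 8 DAP it had 37.5, 41.7, 33.9 and 38.0 CPM, a difference of 0.16 from WT at 7 DAP (interval -0.23 to 0.55, edgeR adjusted p 0.618). The difference at 6 DAP was -0.06 (interval -0.48 to 0.36, edgeR adjusted p 0.881). In order of the mean, CRWN4 ran from WT at 6 DAP through crwn1/2 at 6, 7 and 8 DAP to WT at 7 DAP, and each step was smaller than the SD of at least 1 of its groups.

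The annotated span of CRWN4 overlaps that of ATBCAT-5 (AT5G65780), a branched-chain amino acid aminotransferase gene, and the strand setting of the counting is not given in the sources used here. Reads from the overlap can therefore not be assigned with certainty, and the CRWN4 values are uncertain to that extent. ATBCAT-5 had 63.7 ± 9.72 CPM in WT (SD, n = 4) and 87.8 ± 14.6 CPM in crwn1/2 (SD, n = 5) at 7 DAP, a log2 difference of 0.46 (edgeR adjusted p 0.0193). Its log2 difference between WT at 7 and 6 DAP was -0.62 (edgeR adjusted p 0.00459), beside -0.50 (edgeR adjusted p 0.0613) for CRWN4.

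**Figure D2:**
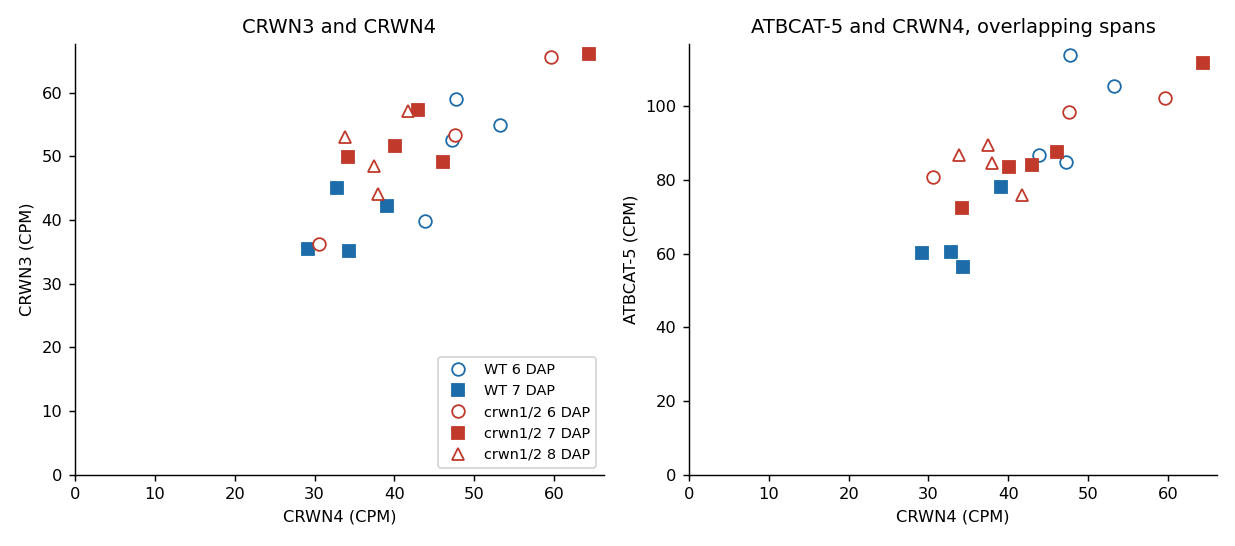
CPM of CRWN3 (left) and of ATBCAT-5 (right) against CPM of CRWN4 in the same library, both axes linear from 0, for 20 libraries marked by group. The WT libraries of 7 DAP lie towards the lower left of both panels, at 29.1 to 39.1 CPM of CRWN4 and 35.1 to 45.1 CPM of CRWN3, and crwn1/2 7 DAP replicate 1 lies at the upper right, at 64.4 and 66.1 CPM.

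KAKU4, which binds CRWN1 and CRWN4, had 28.2, 39.4, 43.5 and 31.3 CPM in WT at 6 DAP and 25.8, 28.6 and 26.6 CPM in crwn1/2. At 7 DAP it had 40.8, 42.4, 45.6 and 40.3 CPM in WT and 44.9, 35.5, 41.3, 31.6 and 40.5 CPM in crwn1/2. At 8 DAP the crwn1/2 libraries had 30.1, 46.6, 28.1 and 38.0 CPM. The genotypes overlapped in each comparison. The log2 difference was -0.40 at 6 DAP (interval -0.78 to -0.01, edgeR adjusted p 0.171), -0.13 at 7 DAP (interval -0.46 to 0.20, edgeR adjusted p 0.605) and -0.25 for crwn1/2 8 versus WT 7 DAP (interval -0.60 to 0.10, edgeR adjusted p 0.341). In order of the mean, WT at 7 DAP was highest and crwn1/2 at 6 DAP lowest, and only the last step, of 8.56 CPM from WT at 6 DAP to crwn1/2 at 6 DAP, exceeded the SD of both groups.

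**Figure D3:**
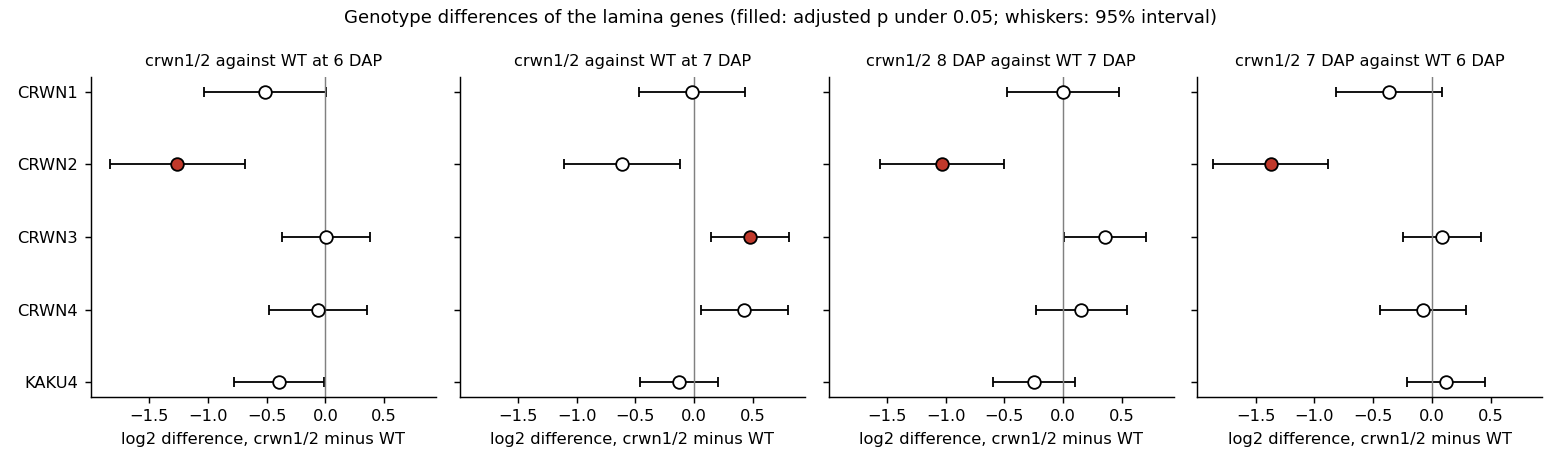
Log2 differences, crwn1/2 minus WT, of the 5 genes in the 4 genotype comparisons, with 95% intervals from the edgeR fit. Filled points passed an adjusted p of 0.05, namely CRWN2 at -1.26, -1.03 and -1.37 and CRWN3 at 0.47.

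Between days, CRWN2 was the only member that passed, and it fell in WT. In WT its log2 difference between 7 and 6 DAP was -0.76 (SE 0.25, edgeR adjusted p 0.035), where 20% of all features passed. The means were 69.9 ± 16.0 and 41.3 ± 4.43 CPM (SD, n = 4 each). The libraries of the 2 days did not overlap, and the share of all features without overlap was not counted. This comparison shares its WT libraries with the genotype comparisons above. No member passed when WT 6 DAP replicate 3 or 4 or any WT 7 DAP library was left out. The differences of CRWN1, CRWN3 and CRWN4 were -0.35, -0.39 and -0.50 (edgeR adjusted p 0.295, 0.109 and 0.0613), and that of KAKU4 was 0.25 (edgeR adjusted p 0.309).

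In crwn1/2 no member passed in edgeR between 7 and 6 DAP, where 11.2% of all features did, or between 8 and 7 DAP, where 3.95% did. At an unadjusted p under 0.05 the counts were 1 and 0, and DESeq2 called 1 and 0. KAKU4 had the largest difference between 7 and 6 DAP, at 0.52 (SE 0.18, interval 0.15 to 0.89, edgeR adjusted p 0.0626, DESeq2 adjusted p 0.0473). For KAKU4 every crwn1/2 library of 7 DAP lay above every crwn1/2 library of 6 DAP, and the share of all features that did so was not counted. CRWN2 differed by -0.11 between 7 and 6 DAP (interval -0.65 to 0.42) and by -0.42 between 8 and 7 DAP (interval -0.92 to 0.08, edgeR adjusted p 0.38). In order of the mean, CRWN2 ran from WT at 6 DAP through WT at 7 DAP to crwn1/2 at 6, 7 and 8 DAP, at 29.2 ± 6.91 (n = 3), 27 ± 7.61 (n = 5) and 20.1 ± 7.86 CPM (n = 4, all SD). Neighbours among the last 3 groups did not differ beyond their spread.

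Whether the genotype difference itself changed from 6 to 7 DAP was tested with an interaction term, which 3.49% of all features passed and none of the 5 members. The count was also 0 at an unadjusted p under 0.05 and in DESeq2. The interaction was 0.27 to 0.65 on the log2 scale, with edgeR adjusted p of 0.313 to 0.602. It was 0.65 for CRWN2 (interval -0.10 to 1.39) and 0.47 for CRWN3 (interval -0.03 to 0.97). A difference at 7 DAP that was not seen at 6 DAP, as for CRWN3, was thus not shown to differ between the days.

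Ratios of counts within a library do not depend on the scaling of library totals. The CRWN2/CRWN4 ratio separated the genotypes in all 3 comparisons made. It was 1.22 to 1.70 in WT at 6 DAP, 1.15 to 1.29 in WT at 7 DAP, and 0.563 to 0.777, 0.307 to 0.848 and 0.272 to 0.896 in crwn1/2 at 6, 7 and 8 DAP. The mean log2 difference was -1.15 at 6 DAP, -1.07 at 7 DAP and -1.28 for crwn1/2 8 versus WT 7 DAP. The exact two-sided permutation p was 0.0571, 0.0159 and 0.0286, in each case the smallest these group sizes allow. The lowest value adjusted over the 15 ratio tests was 0.143, so no ratio passed after adjustment. The CRWN4 counts in this ratio carry the uncertainty from ATBCAT-5 given above.

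The CRWN2/CRWN1 ratio, between both genes named in the genotype, was, at 6 DAP, 0.612 ± 0.0637 for WT and 0.395 ± 0.142 for crwn1/2 (SD, n = 4 and 3). The values at 7 DAP were 0.466 ± 0.0991 and 0.305 ± 0.0856 (n = 4 and 5), and at 8 DAP 0.224 ± 0.101 in crwn1/2 (n = 4). The genotypes were only just apart at 6 DAP, with the highest crwn1/2 ratio at 0.541 and the lowest WT ratio at 0.544. At 7 DAP 4 of 5 crwn1/2 libraries lay below every WT library. The log2 differences were -0.69, -0.63 and -1.13 for 6 DAP, 7 DAP and crwn1/2 8 versus WT 7 DAP (exact permutation p 0.0571, 0.0476 and 0.0571, each 0.143 after adjustment). Without crwn1/2 6 DAP replicate 1 the value at 6 DAP was -0.41.

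Ratios to CRWN1 of the other 3 genes overlapped between the genotypes. CRWN3/CRWN1 differed by 0.55 at 6 DAP and 0.51 at 7 DAP on the log2 scale (exact permutation p 0.114 and 0.0952), and CRWN4/CRWN1 by 0.46 and 0.44 (exact p 0.114 and 0.286). KAKU4/CRWN1 differed by 0.19 at 6 DAP and -0.10 at 7 DAP (exact p 0.686 and 0.683). A single library, crwn1/2 7 DAP replicate 1, had the highest CRWN3/CRWN1 and CRWN4/CRWN1 ratios of all, 1.06 and 1.04, and the highest KAKU4/CRWN1 ratio, 0.721. Without it the differences at 7 DAP were 0.31 for CRWN3/CRWN1 and 0.18 for CRWN4/CRWN1 (exact permutation p 0.171 and 0.514), and without WT 7 DAP replicate 4 that of CRWN3/CRWN1 was 0.66 (exact permutation p 0.0357).

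**Figure D4:**
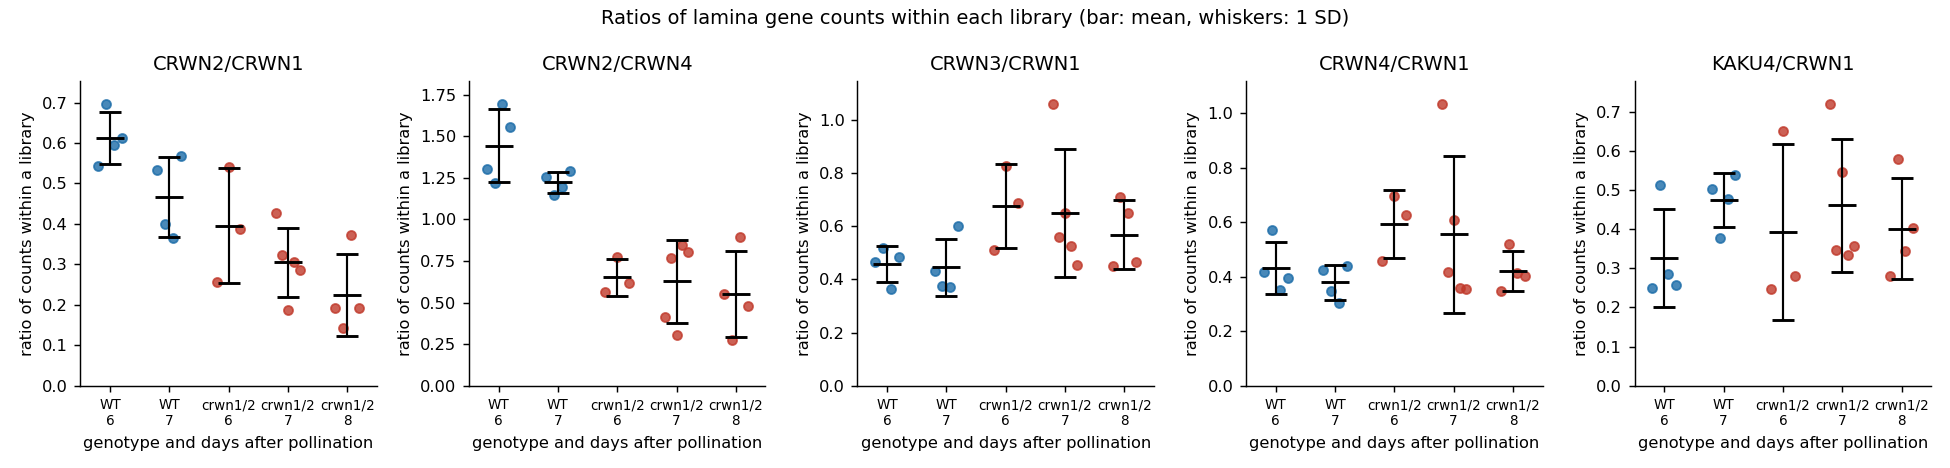
Ratios of counts of 2 genes within each library (vertical axis, linear from 0) by genotype and day. Points are libraries, bars means and whiskers 1 SD. For CRWN2/CRWN4 all WT libraries lie at or above 1.15 and all crwn1/2 libraries at or below 0.896.

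Within groups, the 5 genes varied to unequal extents. The biological coefficient of variation in the fit was 0.231 for CRWN1, 0.248 for CRWN2, 0.170 for CRWN3, 0.187 for CRWN4 and 0.170 for KAKU4, all under the median of 0.277 over the features tested. That median covers features of every level past the filter, and features of like level were not compared. CRWN3 and CRWN4 deviated from their group means together (Pearson r 0.751 over 20 libraries, given as a description). Their log2 ratio had a spread of 0.183 within groups, less than that of CRWN3 (0.239) or CRWN4 (0.272) alone. CRWN2 and KAKU4 had an r of -0.462, and the other 8 pairs lay between -0.213 and 0.451. All values of a library share its depth and scaling.

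Likeness in pattern was measured over the 20 libraries as the root mean square difference of centred log2 CPM, among 14146 features with a mean of at least 10 CPM. For CRWN2 the nearest was SRG1 (AT1G17020), a gene of the 2-oxoglutarate-dependent dioxygenase family, at 0.41, with a median of 0.82 over all features compared. SRG1 had means of 49.2 and 32.2 CPM in WT at 6 and 7 DAP and 32.6, 20.3 and 14.6 CPM in crwn1/2 at 6, 7 and 8 DAP. The transposable element AT3TE43545 (0.42) and AT2G43240 (0.43) came next. For CRWN1 they were ECT5, a YTH-domain RNA-binding protein gene (0.23), AT5G14940 (0.24) and FDM5 (0.25). For CRWN3 they were HDR (0.16), which encodes the last enzyme of the plastid isoprenoid precursor pathway, the triosephosphate isomerase gene TPI (0.17) and AT4G08310 (0.17). For CRWN4 they were AT2G35040 (0.15), the alpha-tubulin gene TUA6 (0.18) and ACLA-1 (0.18), a subunit of ATP-citrate lyase. For KAKU4 they were AXS1 (0.20) and UGP2 (0.21), enzymes of nucleotide sugar metabolism, and EMP1 (0.20). The medians over all features compared were 0.52, 0.43, 0.45 and 0.46 for CRWN1, CRWN3, CRWN4 and KAKU4.

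Of 22 other genes of the nuclear envelope and lamina, which include the SUN, WIP, WIT, SINE and NEAP families, none was higher in crwn1/2 in any of the 4 genotype comparisons by edgeR, and 1 or 2 were lower in each. All 22 were tested. Of all features, 6.26%, 13.5%, 7.04% and 3.05% were lower and 6.38%, 10.9%, 6.9% and 3.99% higher in the 6 DAP, 7 DAP, crwn1/2 8 versus WT 7 DAP and crwn1/2 7 versus WT 6 DAP comparisons, and the counts among the 22 are read against these shares. At an unadjusted p under 0.05, 2, 4, 3 and 2 were higher and 3, 2, 3 and 3 lower, in the same order of comparisons. The shares of all features above are at the adjusted threshold and do not apply to these unadjusted counts. At 6 DAP 2 were lower, NEAP1 and NEAP3, which encode coiled-coil proteins of the inner nuclear membrane. NEAP1 had 56.2 ± 7.37 CPM in WT (SD, n = 4) and 30.8 ± 8.12 CPM in crwn1/2 (SD, n = 3), or -0.87 on the log2 scale (SE 0.21, edgeR adjusted p 0.0074). NEAP3 had 103 ± 5.95 and 69.6 ± 11.6 CPM, or -0.57 on the log2 scale (SE 0.18, edgeR adjusted p 0.0413). For both genes, which are named because they passed, the genotypes did not overlap at 6 DAP. The share of all features that separated likewise was not counted.

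At 7 DAP 2 of the 22 were lower. SUN2, a gene for an inner membrane protein that links the envelope to the cytoskeleton, had means of 28 ± 4.70 CPM for WT and 18.6 ± 2.05 CPM for crwn1/2 (SD, n = 4 and 5), or -0.59 on the log2 scale (SE 0.19, edgeR adjusted p 0.0283). GIP2, which encodes a small protein associated with gamma-tubulin complexes, had 26.2 ± 8.27 and 15.8 ± 1.78 CPM, a difference of -0.73 (SE 0.21, edgeR adjusted p 0.0165). GIP2 was also the single gene lower in crwn1/2 (8 DAP) versus WT (7 DAP) (-0.77, edgeR adjusted p 0.027), a comparison that shares the WT libraries. For crwn1/2 (7 DAP) versus WT (6 DAP) the genes lower were WIT2 (-0.90, edgeR adjusted p 0.0126), an outer envelope protein gene, and NEAP2 (-0.74, edgeR adjusted p 0.0302).

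The median log2 difference of the 22 genes was 0.02, -0.04, -0.10 and -0.13 in the 6 DAP, 7 DAP, crwn1/2 8 versus WT 7 DAP and crwn1/2 7 versus WT 6 DAP comparisons, beside -0.01, 0.02, -0.02 and 0.00 over all features. Between days in WT 3 of the 22 fell, and in crwn1/2 2 rose and 2 fell between 7 and 6 DAP and none passed between 8 and 7 DAP, beside 20%, 11.2% and 3.95% of all features in either direction. These genes, named here after their values were seen, were SUN4, SINE2 and NEAP2 in WT (-1.35, -0.85 and -0.63, edgeR adjusted p 0.0137, 0.0203 and 0.048) and, in crwn1/2, NEAP1 and NEAP3 upwards (0.70 and 0.54, edgeR adjusted p 0.0227 and 0.0469) and WIT1 and WIT2 downwards (-0.73 and -1.13, edgeR adjusted p 0.0253 and 0.00223). None of the 22 passed the interaction test in edgeR, with 3 at an unadjusted p under 0.05, and between 8 and 7 DAP that number was 2.

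**Figure D5:**
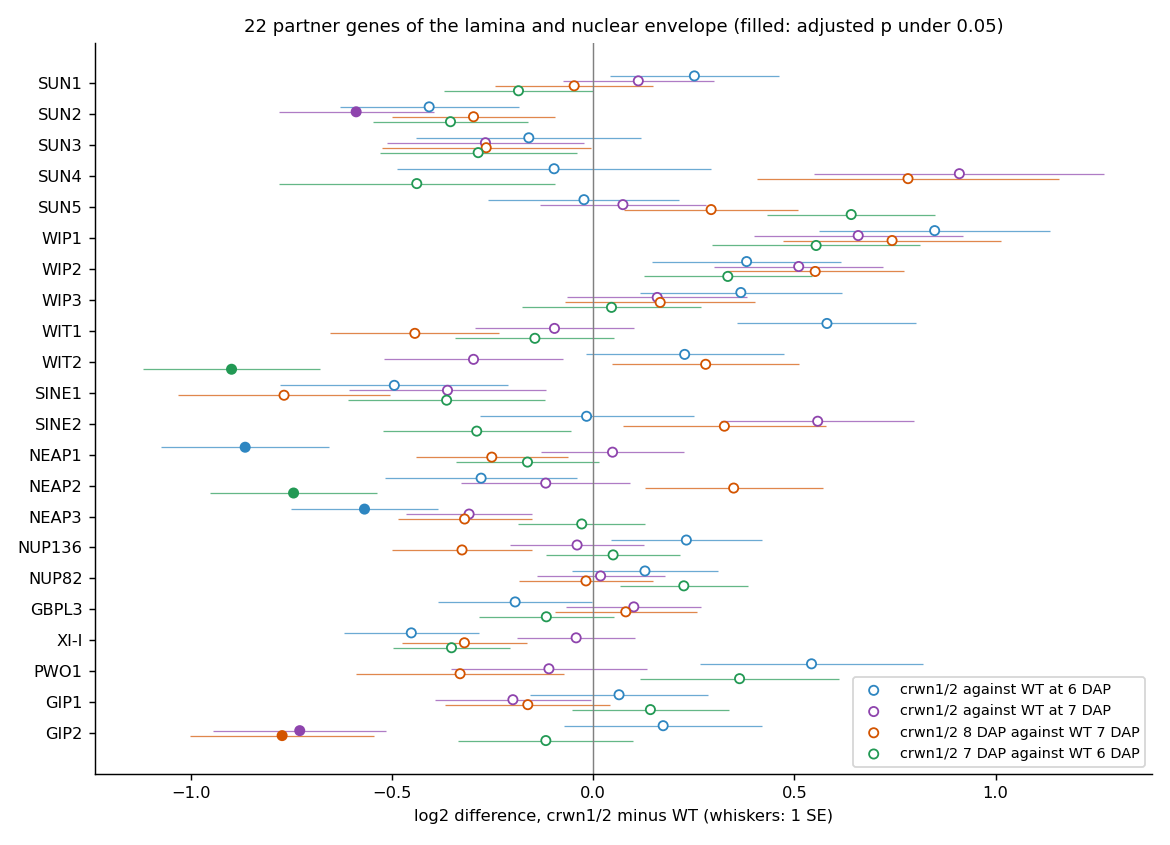
Log2 differences, crwn1/2 minus WT, of 22 other genes of the nuclear envelope and lamina in the 4 genotype comparisons, with whiskers of 1 SE. Filled points passed an adjusted p of 0.05 and all lie below 0, from -0.57 to -0.90.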

How the data were processed

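The 20 files of read counts hold whole numbers per gene and per transposable element feature, as deposited by the authors, and every value was checked to be whole and not negative. Per the submitters' processing notes the tools included STAR 2.7.1a and HTSeq and the build was TAIR10, with no role or order given. The authors also deposited 12 H3K27me3 peak lists with a read count per peak, which gave no result here. Neighbouring genes, and the symbols of genes outside the lists, came from the RefSeq table for TAIR10.1. All 54 listed genes had an entry there, and 45 of the symbols used for them were found in it. The other listed symbols, among them those of the NEAP genes and SINE2, did not come from that table. Reads outside features (4.05% to 5.92%) and ambiguous reads (1.19% to 1.52%), listed at the end of each file, entered neither library totals nor tests.

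All 20 libraries entered a single edgeR 4.0.16 fit (R 4.3.3) with a term per group, TMM scaling and the filter for low counts (count minimum 10, total minimum 15), which kept 24696 of 63867 features. Quasi-likelihood F-tests were two-sided, with Benjamini-Hochberg adjustment over all features tested and 95% intervals from the fit. The same steps were tested on simulated data. Ratios were tested by exact two-sided permutation with scipy over libraries, adjusted over 15 tests. Likeness used a prior count of 2.

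The genes named are the 5 members, up to 3 envelope genes per direction and genotype comparison with the largest difference past the threshold, and the 3 features most like each member with a mean of at least 10 CPM. Members and lists were chosen with earlier results of these data known. Alternatives were size factors of DESeq2 (1.42.0) within edgeR, library totals alone, DESeq2 itself, no filter, a fit of only the groups compared, the replicate number as a block, a covariate for the share of reads outside features, and leaving out each library.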

Additional observations from a re-analysis of the deposited data

Results flagged for a closer look

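Among 40 sets of values, 1 per gene or ratio and group of at least 4 libraries, a single library stood apart. The KAKU4/CRWN1 ratio of counts in WT 6 DAP replicate 2 was 0.513, whereas the other 3 libraries of the group lay between 0.249 and 0.286. That library had the lowest CRWN1 level of its group, 76.8 CPM, and 39.4 CPM of KAKU4. Chance gives such a gap in about 1 in 20 groups.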

How the results depend on the processing

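CRWN2 kept its direction in all 4 genotype comparisons under every alternative run, and stayed past the threshold at 6 DAP, for crwn1/2 8 versus WT 7 DAP and for crwn1/2 (7 DAP) versus WT (6 DAP). The other calls rested on the setting, and the cause was not tested. At 7 DAP the main fit called 1 member, beside 24.4% of all features. The number of all features called also moved with the setting, and is given below for the replicate block, the covariate and no filter. For the other settings it is not given here, so their counts of members cannot be read against such a share. At that day the number of members called was 2 with DESeq2's size factors, library totals alone, DESeq2, no filter and only the groups compared, and 0 with the replicate block and with a covariate for reads outside features. CRWN2 at 7 DAP was then -0.65 (size factors, adjusted p 0.0467), -0.65 (DESeq2, 0.037) and -0.66 (only the groups compared, 0.0404), but -0.38 without a filter (0.196) and -0.37 with the covariate (0.642). CRWN4 at 7 DAP was 0.48 with library totals alone and 0.65 without a filter but 0.065 with the covariate (0.932), and CRWN3 for crwn1/2 8 versus WT 7 DAP was 0.57 without a filter, where the count of members was 2. Without a filter the median over all features moved by 0.23 at 7 DAP, 0.21 for crwn1/2 8 versus WT 7 DAP, 0.15 for the interaction and -0.15 between the WT days. In the same setting CRWN1 and KAKU4 at 7 DAP turned to 0.21 and 0.094. CRWN3 at 7 DAP was 0.49 with the replicate block (adjusted p 0.066) and 0.25 with the covariate. Between the WT days the count was 2 with library totals alone, no filter and only the groups compared, and 0 with the block and the covariate, and between crwn1/2 at 7 and 6 DAP it was 1 with DESeq2.

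Other changes of sign were of values near 0. CRWN1 for crwn1/2 8 versus WT 7 DAP was -0.0076, -0.0078 and -0.0091 with the size factors, DESeq2 and the replicate block, -0.032 with only the groups compared and -0.16 with the covariate, and CRWN1 at 7 DAP was 0.045 with library totals alone. CRWN4 at 6 DAP was 0.012 with library totals alone and 0.019 without a filter, and CRWN4 for crwn1/2 8 versus WT 7 DAP was -0.0045 with the covariate. CRWN3 at 6 DAP was -0.017 with only the groups compared and -0.027 with the covariate, and for crwn1/2 (7 DAP) versus WT (6 DAP) it was -0.011 with the covariate.

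With each library left out in turn, the count of members called ran from 0 to 2 at 7 DAP, 0 to 1 between the WT days and 0 to 1 between crwn1/2 at 7 and 6 DAP. CRWN3 at 7 DAP ran from 0.40 to 0.53, at 6 DAP from -0.18 to 0.23, and for crwn1/2 (7 DAP) versus WT (6 DAP) from -0.019 to 0.16. CRWN4 ran from 0.28 to 0.51 at 7 DAP, from -0.27 to 0.19 at 6 DAP and from -0.23 to 0.012 for crwn1/2 (7 DAP) versus WT (6 DAP). CRWN1 ran from -0.11 to 0.095 at 7 DAP and from -0.075 to 0.11 for crwn1/2 8 versus WT 7 DAP. The log2 difference of CRWN2/CRWN1 ran from -0.95 to -0.41 at 6 DAP and from -0.77 to -0.47 at 7 DAP, that of CRWN4/CRWN1 at 7 DAP from 0.18 to 0.57, of CRWN3/CRWN1 at 7 DAP from 0.31 to 0.66, of KAKU4/CRWN1 at 6 DAP from -0.24 to 0.45 and of CRWN2/CRWN4 for crwn1/2 8 versus WT 7 DAP from -1.56 to -0.98. With 4 against 3 libraries the last test cannot go below 0.0571. Where a fit left 2 libraries in a group, those were assumed to vary like the other groups.

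Replicate numbers did not pair the libraries. Over 36 same-numbered pairs of different groups the deviations from the group means had a mean correlation of -0.00089 (range -0.197 to 0.14), and 2 pairs were over 0.1. Features called at 7 DAP were 4346 with the replicate block and 737 with the covariate, against 6034. Without a filter 10105 were called, in a fit that tested more features. The covariate did not overlap between the genotypes at 7 DAP, so the fit with it cannot fully separate it from genotype. Between the WT days the covariate left 2574 of 4950. The lowest count of any of the 5 genes in a library was 95, for CRWN2 in crwn1/2 8 DAP replicate 2.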

Other observations

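The genes annotated next to the 5 members were read as well. Of 11 such genes, which include ATBCAT-5, 9 were tested. At 7 DAP 4 of them were higher in crwn1/2 and none was lower, where 10.9% of all features were higher. They were ATBCAT-5 (AT5G65780), which overlaps CRWN4, and AT5G65760 beside it, with log2 differences of 0.46 and 0.47 (edgeR adjusted p 0.0193 and 0.036), AT1G68795 (CLE12) beside CRWN3, with 1.68 (edgeR adjusted p 0.0204), and AT4G31440 beside KAKU4, with 3.51 (edgeR adjusted p 0.00903). The same 4 genes were lower in WT at 7 DAP than at 6 DAP, at -0.62, -0.52, -1.90 and -2.90 (edgeR adjusted p 0.00459, 0.0317, 0.0145 and 0.0379). That comparison shares the WT libraries of 7 DAP, and 20% of all features passed in it, in either direction. In the 6 DAP, crwn1/2 8 versus WT 7 DAP and crwn1/2 7 versus WT 6 DAP comparisons edgeR called 0 of the 9, beside 12.6%, 13.9% and 7.04% of all features. At an unadjusted p under 0.05 the counts were 2, 3 and 0. In the interaction test 1 of the 9 passed, upwards, beside 3.49% of all features, with 4 at an unadjusted p under 0.05. The 4 genes above were named after their values were seen.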
